A study of Mus musculus with 12 samples.

Results

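The genes that bring glucose into the cell and add or remove its phosphate were followed through 12 mouse spleen libraries. They were chosen by name from the deposited count table as 10 of its 53715 gene rows, and all 10 symbols were found. The set holds the hexokinases Hk1, Hk2, Hk3 and Hkdc1, the ADP-dependent glucokinase Adpgk, the glucose 6-phosphatase G6pc3, and the transporters Slc2a1, Slc2a3, Slc2a6 and Slc2a8. They are the entry point both for glucose and for 2-deoxyglucose (2DG), the drug used in the study.

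A cell takes up glucose through carriers of the GLUT family, encoded by Slc2a genes, and a hexokinase then phosphorylates it so that it cannot leave. 2DG enters by the same carriers and is phosphorylated by the same enzymes, but its phosphate cannot pass through glycolysis and builds up, where it inhibits hexokinase. Immune cells that are activated raise glucose uptake and glycolysis, and Hk2 and Slc2a1 are the isoforms best known for being induced in that state, whereas Hk1 is widely expressed and is the main hexokinase of red blood cells.

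Poly(A) RNA was sequenced from 3 groups of 4 spleen samples. The mice of all groups were labelled BXSB.Cg-Cd8atm1Mak Il15tm1Imx Yaa, abbreviated Yaa DKO. They carried the lupus-prone BXSB background with Yaa, a duplication of X-linked genes including Tlr7 on the Y chromosome, and targeted alleles of both Cd8a and Il15, so no group had intact alleles of these genes for comparison. The first group was untreated and 6 weeks old (replicates 1 to 4, pre-symptomatic), the second untreated and 10 weeks old (replicates 5 to 8, symptomatic), and the third was 10 weeks old and had received 2DG at 6 g/L in the drinking water (replicates 9 to 12). The labels do not give the length of treatment or say that each sample came from its own mouse, so p-values below judge differences against variation among samples that could be technical.

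Libraries held 15596040 to 26079979 counts, of which 7687 to 13598 fell on the 10 genes. All 7 spleen markers tested, among them Tlx1 and Nkx2-5, were counted in every library. Untreated 10-week replicate 8 was closer to the 6-week libraries than to its own group, and replicate 6 was the library least like its own group. Results that change when either is left out are given both ways.

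The letters before the starts of the 3 hexokinase genes with appreciable counts are shown because Hk2 changed with 2DG while Hk1 and Hk3 did not pass the test. Each is the 250 bases upstream of the start on the gene's own strand, 5′ to 3′, from the RefSeq promoter table (GRCm38.p6). Capitals mark ACGTG, a form of the core of the hypoxia response element, and GGGCGG, the GC box, on either strand. CACGT and CCGCCC are the same motifs read on the other strand. Other forms of the hypoxia response core were not searched, so a window without a match may hold them.
Hk2, chr6:82774455-82774704, minus strand: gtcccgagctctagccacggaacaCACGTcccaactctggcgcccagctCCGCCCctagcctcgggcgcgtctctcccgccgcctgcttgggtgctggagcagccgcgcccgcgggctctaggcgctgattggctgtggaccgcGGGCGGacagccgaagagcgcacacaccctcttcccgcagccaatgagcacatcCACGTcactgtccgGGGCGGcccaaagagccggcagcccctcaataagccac
Hk1, outermost start, chr10:62379909-62380158, minus strand: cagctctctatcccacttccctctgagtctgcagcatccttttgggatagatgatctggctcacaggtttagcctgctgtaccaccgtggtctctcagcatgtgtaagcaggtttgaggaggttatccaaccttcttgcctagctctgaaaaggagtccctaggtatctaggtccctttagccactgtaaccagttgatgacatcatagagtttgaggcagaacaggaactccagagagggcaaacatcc
Hk3, chr13:55021386-55021635, minus strand: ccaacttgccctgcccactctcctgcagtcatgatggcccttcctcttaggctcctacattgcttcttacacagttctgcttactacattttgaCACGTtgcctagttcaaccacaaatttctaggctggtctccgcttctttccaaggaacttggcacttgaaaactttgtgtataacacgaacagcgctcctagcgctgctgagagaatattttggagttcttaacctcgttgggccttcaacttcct

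The Hk2 window held 25 CpG and 69.6% G or C, with 2 matches to ACGTG and 3 to GGGCGG. The Hk3 window held 6 CpG, 47.2% G or C and 1 match to ACGTG. The printed Hk1 window, at its outermost start, held 1 CpG and 49.6% G or C, with no match. The window before its inner start held 14 CpG and 62.8% G or C, also with no match. Which start of Hk1 these spleens used cannot be read from counts per gene. Over 32851 such windows the median was 52.4% G or C and 6 CpG, ACGTG occurred in 16.6% and GGGCGG in 32.7%. Among the members whose sequence is not printed, Slc2a1 had 1 match to ACGTG and 2 to GGGCGG, Adpgk 1 match to each and Slc2a6 1 to GGGCGG, while Slc2a8 and Hkdc1 had neither. G6pc3 had 4 matches to ACGTG, all within its 2 copies of CACGTG, which reads the same on both strands. CACGTG, the E-box, which contains ACGTG, occurred in 6.02% of all windows and among the matched members only before G6pc3. TGANTCA, the AP-1 motif, found in 6.75% of windows, had no match in any member's window. Of the 10 genes 9 had an entry. Slc2a3 had none. These matches describe letters and are not evidence of binding.

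Levels of different genes were compared as CPM (counts scaled to library size after normalisation) per kilobase of annotated exon. In untreated spleens at 6 weeks the order was Hk1 at 14.5 ± 1.27 (SD, n = 4), Slc2a1 at 13.2 ± 0.490, Adpgk at 12.7 ± 0.719, Slc2a3 at 11.8 ± 1.56 and G6pc3 at 11.1 ± 0.777, followed by Hk3 at 8.65 ± 1.84 and Hk2 at 6.46 ± 1.09. The ranges of neighbours overlapped down to Hk2, so their order there is not firm. Slc2a6, at 3.66 ± 0.252, and Slc2a8, at 2.12 ± 0.131, lay below Hk2 and apart from each other without overlap. Hkdc1, a hexokinase-like gene best known from epithelia, stood at 0.0045 and was at the limit of detection.

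In untreated spleens at 10 weeks the same scale put Hk1 at 17.1 ± 3.89 CPM per kilobase, Slc2a1 at 14.1 ± 2.01 and Hk2 at 8.48 ± 1.69. With 2DG, Hk1 stood at 20.3 ± 3.60, Slc2a1 at 14.4 ± 1.06 and Hk2 at 4.47 ± 0.122 CPM per kilobase. With 2DG, Hk2 lay below Hk3 (7.29 ± 1.03) and above Slc2a6 (3.37 ± 0.391) with no overlap on either side. The order depends on the length used. With the transcript holding the longest coding sequence in place of all exons, a choice made after seeing the data, Adpgk came first at 6 weeks, at 49.1 ± 2.78 CPM per kilobase, ahead of Hk1 at 32.2 ± 2.82, since its exons together span 9.609 kb and that transcript 2.484 kb. Hk2 and Slc2a6 then overlapped with 2DG, at 4.84 ± 0.132 and 5.06 ± 0.587 CPM per kilobase.

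Hk2 (ENSMUSG00000000628.10, chromosome 6, 82725025 to 82774454, minus strand, GRCm38) encodes a hexokinase that binds mitochondria and is inducible in many tissues. Untreated spleens at 10 weeks had 61.0, 51.5, 53.0 and 36.9 CPM in replicates 5 to 8. Spleens given 2DG had 27.6, 26.3, 26.9 and 26.0 CPM in replicates 9 to 12. Untreated spleens at 6 weeks had 47.7, 34.1, 38.9 and 33.6 CPM in replicates 1 to 4. All 4 2DG libraries lay below all 8 untreated libraries, of either age. Their coefficient of variation was 2.73%, against 19.9% in untreated spleens at 10 weeks. This was not particular to Hk2, since every other tested member also varied less with 2DG, such as G6pc3 at 4.78% against 16.2%. Counts behind the Hk2 levels were 582 to 656 per 2DG library and 547 to 1286 per untreated library. At such counts the spacing of the 2DG libraries is no wider than counting error.

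Hk2 fell 1.89-fold with 2DG against untreated spleens of the same age (log2 change -0.92, SE 0.14, edgeR quasi-likelihood adjusted p = 0.0032), a difference shown by 4 of 4 treated libraries. Of 18542 genes tested 7.42% passed in this comparison, and 12.4% had groups that did not overlap. Hk2 was the 1 member of the 9 tested to do either. The call held in all 20 alternative fits, with log2 changes from -1.10 to -0.82 and adjusted p from 2.64e-07 to 0.0163.

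Against 6 weeks the 2DG spleens also held less Hk2 without overlap (log2 change -0.53, SE 0.14), but the test was not passed (edgeR adjusted p = 0.103). It was passed in 4 of the 20 alternatives, and adjusted p reached 0.282 over the alternatives. The 4 were DESeq2 (adjusted p = 0.0182), a fit of the compared groups alone (0.0197), voom (0.0239) and leaving out untreated replicates 6 and 8 together (0.0255). Replicates 6 and 8 are outside this comparison, but the main fit uses 1 estimate of the spread for all 3 groups. Chi-square per gene was 54.8 to 85.2 between libraries of the untreated 10-week group, and 10.5 to 31.0 within the compared groups. The part of that spread in the Hk2 result was not tested. With age alone the log2 change of Hk2 was 0.39 (SE 0.14, edgeR adjusted p = 0.191). Without untreated 10-week replicate 8, whose 36.9 CPM was the lowest of its group, the age change became 0.52 and passed (edgeR adjusted p = 0.0184; 0.0124 to 0.417 over the alternatives). The 3 comparisons share libraries, so their signs are not independent of each other.

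**Figure D1:**
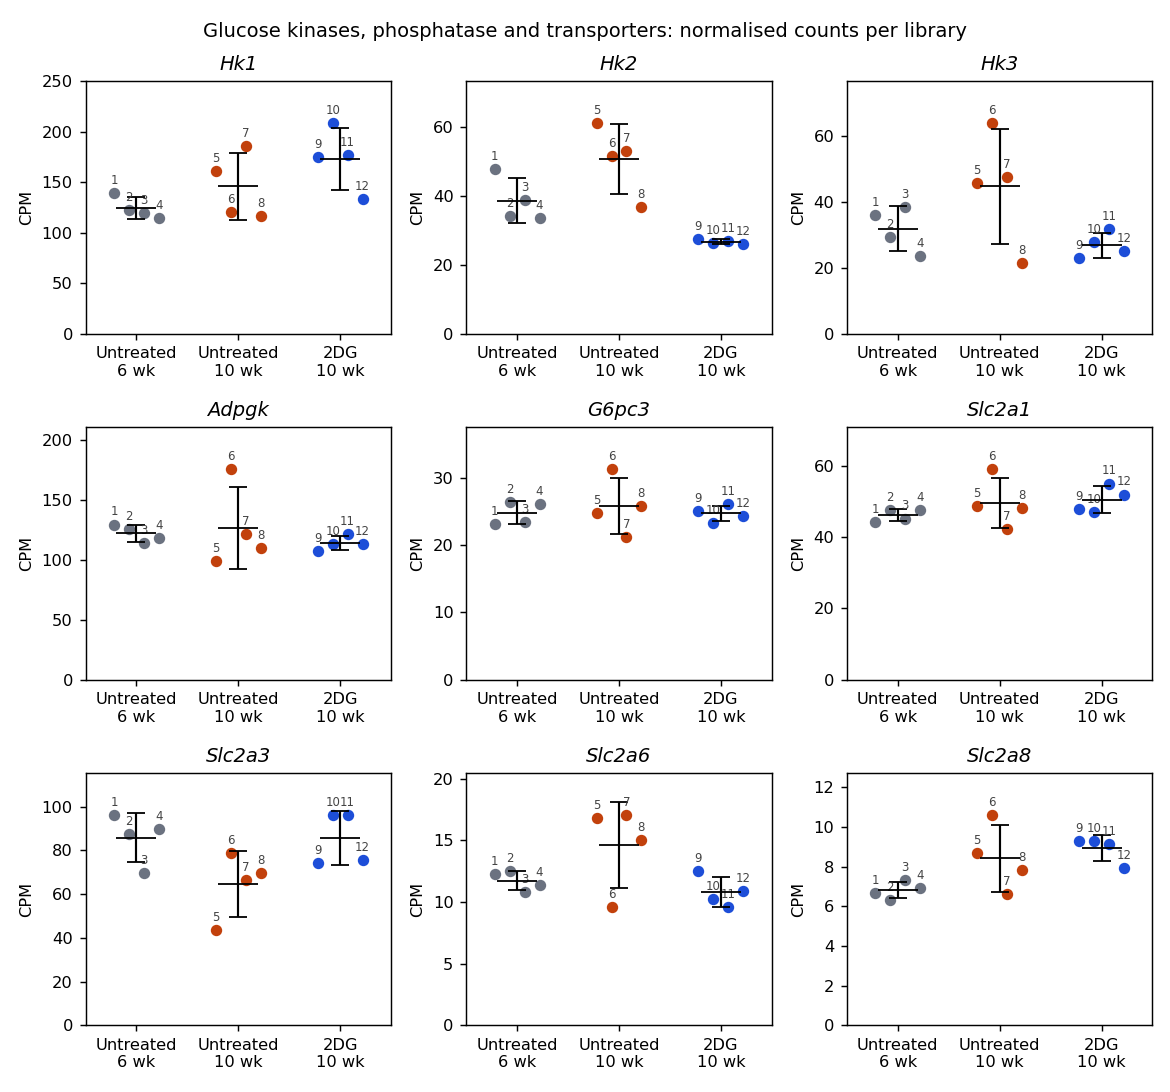
Normalised counts (CPM, linear axis from 0) of the 9 tested genes in each library, one panel per gene; points are libraries with their replicate numbers, horizontal bars the group means and error bars the SD of 4 libraries. Hk2 in the 4 2DG libraries lies between 26.0 and 27.6 CPM, below all 8 untreated libraries, while untreated 10-week replicate 6 is the highest library for Hk3, Adpgk, G6pc3, Slc2a1 and Slc2a8.

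Plasma cell markers were lower with 2DG too. Of 9 markers on the list, 7 fell (Sdc1, Xbp1, Prdm1, Jchain, Mzb1, Derl3 and Fkbp11) and none was at 0 in any library. Their summed level was 3503 to 6431 CPM in the untreated 10-week group, 1605 to 2487 CPM with 2DG and 2100 to 3902 CPM at 6 weeks. Immunoglobulin genes took 5.11 to 10.7%, 1.93 to 3.08% and 2.79 to 4.94% of counts in the same order. Effector and natural killer lymphocyte markers had a like pattern, summing to 38.2 to 75.1, 22.1 to 31.8 and 24.5 to 32.0 CPM in that order. Of the 9 on that list 4 fell with 2DG (Ccl5, Eomes, Gzmb and Ifng), and 2 had positive log2 changes. Over all genes 7.42% passed with 2DG at 10 weeks, in either direction. In these bulk samples, fewer cells of a type and less RNA per cell cannot be told apart. The part of plasma cells or of effector lymphocytes in the Hk2 result was not tested. With immunoglobulin genes removed from the table, the Hk2 change was -0.93. That fit leaves the Hk2 counts as they are, so it cannot show how much Hk2 came from plasma cells. Replicate 6 held a plasma marker sum of 3503 CPM with 51.5 CPM of Hk2, and replicate 8 a sum of 3958 CPM with 36.9 CPM. Replicate 4, at 6 weeks, had a sum of 2100 CPM, inside the 2DG range, with Hk2 at 33.6 CPM, above it.

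The profile of Hk2 over the 12 libraries was set against those of 10241 genes by the root mean square difference of log2 CPM, each gene centred on its own mean; the median difference was 0.443. The closest profiles were those of Ssr2, a subunit of the translocon-associated protein complex, at 0.097, Ergic1, a membrane protein of the compartment between endoplasmic reticulum and Golgi, at 0.106, and Sec24a, a cargo-binding coat protein of transport vesicles, at 0.113. Ssr2 stood at 141 ± 30.2 CPM in the untreated 10-week group and 77.1 ± 2.70 CPM with 2DG, and fell by 0.87 on the log2 scale (edgeR adjusted p = 0.00408). Ergic1 and Sec24a fell by 0.86 and 0.95 (edgeR adjusted p = 0.00176 for each), and all 3 calls held in all 20 alternatives. Likeness to Hk2 was itself the criterion, so these falls add no support. Among the members the nearest profile was that of Hk3, at 0.301, and the farthest that of Slc2a3, at 0.647.

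Hk1 (ENSMUSG00000037012.18, chromosome 10, 62268855 to 62379908, minus strand) encodes the widely expressed hexokinase that binds mitochondria. Its levels were 139, 123, 119 and 114 CPM at 6 weeks. Untreated spleens at 10 weeks had 161, 121, 185 and 116 CPM, and spleens given 2DG had 175, 208, 177 and 134 CPM. Means thus stood at 124 ± 10.9, 146 ± 33.2 and 173 ± 30.7 CPM, with replicate 10 highest and all groups overlapping. None of its comparisons passed. The log2 change was 0.23 with age (SE 0.16, edgeR adjusted p = 0.487), 0.25 for 2DG at 10 weeks (SE 0.16, adjusted p = 0.371) and 0.48 for 2DG against 6 weeks (SE 0.16, adjusted p = 0.155). The last passed in a fit of the compared groups alone and with voom (adjusted p = 0.0489 and 0.0377, and 0.0377 to 0.395 over the alternatives). Without replicate 7 the age change was 0.10 and the 2DG change at 10 weeks 0.38, and the latter was 0.15 without 2DG replicate 10 or untreated replicate 8 and 0.17 without replicate 6. Leaving out untreated replicates 6 and 8 together gave 0.49 with age and turned the 2DG change at 10 weeks to -0.0046.

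Levels of erythroid markers varied between the same libraries. All 11 erythroid markers in the table had positive log2 changes with 2DG, 1 of them (Hba-a2) past the threshold, and none was at 0 in any library. Their summed level was 5982 to 9019 CPM at 6 weeks, 2244 to 17771 CPM in the untreated 10-week group and 11015 to 23162 CPM with 2DG. Replicate 10 had the highest sum with 208 CPM of Hk1, and replicate 7 held 17771 CPM of erythroid markers with 185 CPM of Hk1. Within the 2DG group the lowest sum, in replicate 12, went with the lowest Hk1 level, 134 CPM. Replicate 6 had the lowest erythroid sum, 2244 CPM, with Hk1 at 121 CPM, near the 6-week libraries. Levels did not always go together, since replicate 5 had an erythroid sum of 7700 CPM, inside the 6-week range, with 161 CPM of Hk1, above replicate 12, whose sum was 11015 CPM, and above all 6-week libraries. The part of erythroid cells in the Hk1 levels was not tested.

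Hk3 (ENSMUSG00000025877.14, chromosome 13, 55005985 to 55021385, minus strand) encodes a hexokinase found mainly in myeloid cells. It had 36.2, 29.4, 38.4 and 23.5 CPM at 6 weeks. Untreated spleens at 10 weeks had 45.8, 63.9, 47.5 and 21.6 CPM, the lowest and the highest of all 12 libraries lying within this group. Spleens given 2DG had 22.9, 27.8, 31.7 and 25.0 CPM, below replicates 5 to 7 but above replicate 8. The 2DG change at 10 weeks was -0.73 (SE 0.27, edgeR adjusted p = 0.125), and it passed with DESeq2 (adjusted p = 0.0409). Without replicate 8 it was -0.97 with edgeR adjusted p = 0.00495, and adjusted p ran from 0.00495 to 0.292 over the alternatives. With age the change was 0.49 (SE 0.27, edgeR adjusted p = 0.387), and 0.72 without replicate 8 (adjusted p = 0.0312; 0.0312 to 0.652 over the alternatives). Without replicate 6 the age change was 0.27.

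Myeloid markers are given beside Hk3. The 10 neutrophil markers summed to 918 to 2638 CPM at 6 weeks, 473 to 3160 CPM in the untreated 10-week group and 785 to 2014 CPM with 2DG, and none passed in any comparison. Replicate 6 held the highest neutrophil sum and the highest Hk3 level, but replicate 5, with the lowest neutrophil sum, still had 45.8 CPM of Hk3. Of 14 monocyte and macrophage markers 4 fell with 2DG (C1qa, Fcgr1, Ly6c2 and Ms4a7), and the list summed to 3528 to 5147 CPM in the untreated 10-week group, 3732 to 4012 CPM with 2DG and 3571 to 4097 CPM at 6 weeks. Over all genes 7.42% passed with 2DG at 10 weeks, in either direction. No marker of either list was at 0. Their part in the Hk3 result was not tested.

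**Figure D2:**
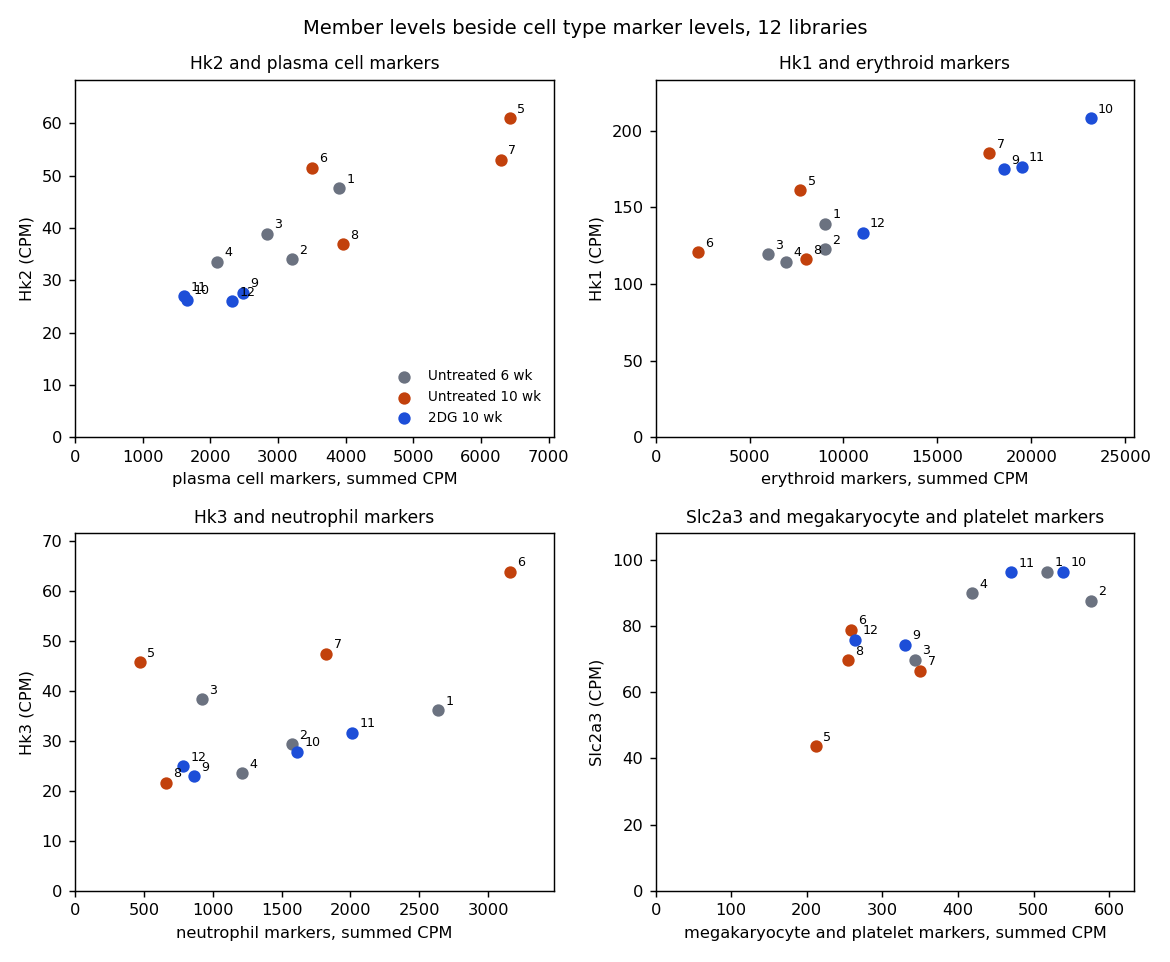
Level of 4 members (CPM, vertical axes) against the summed CPM of a marker list (horizontal axes) in the 12 libraries, which are labelled by replicate number and coloured by group. The 4 2DG libraries share nearly one Hk2 level over plasma marker sums of 1605 to 2487 CPM, and the 4 libraries with erythroid sums of 17771 CPM or more are those with Hk1 at 175 CPM or more.

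Shares of the hexokinases were taken from their summed CPM per kilobase and describe the makeup of each library. Hk1 made up 49.3 ± 3.41% at 6 weeks, 45.9 ± 7.78% in untreated spleens at 10 weeks and 63.0 ± 3.96% with 2DG. In the 2DG libraries it held 58.4 to 67.1%, and in no untreated library more than 53.1%. Hk2 held 21.7 ± 1.32%, 22.6 ± 2.01% and 14.1 ± 1.79% in the same order, and Hk3 29.0 ± 3.55%, 31.4 ± 8.54% and 22.8 ± 2.97%. The share of Hk3 overlapped between groups, with 43.2% in replicate 6.

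The ratio of Hk1 to Hk2 per kilobase was 1.64 to 2.52 in the 8 untreated libraries and 3.60 to 5.55 in the 4 2DG libraries. With the transcript of the longest coding sequence as length it was 3.35 to 5.16 and 7.36 to 11.4. The summed level of the family was 29.7 ± 3.76, 37.7 ± 8.15 and 32.1 ± 4.09 CPM per kilobase at 6 weeks, untreated at 10 weeks and with 2DG, so treated and untreated libraries overlapped in this total and did not overlap in the ratio. Hk2 alone already lay lower in every 2DG library than in every untreated one, so the ratio and the shares in part restate that fall. The Hk1 change with 2DG at 10 weeks did not pass. No test was made on these sums, shares and ratios, which are scores over chosen genes. Coding sequences of Hk1 and Hk2 were 72.2% identical with a longest shared run of 27 bases, the longest among the 12 pairs compared within the families.

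**Figure D3:**
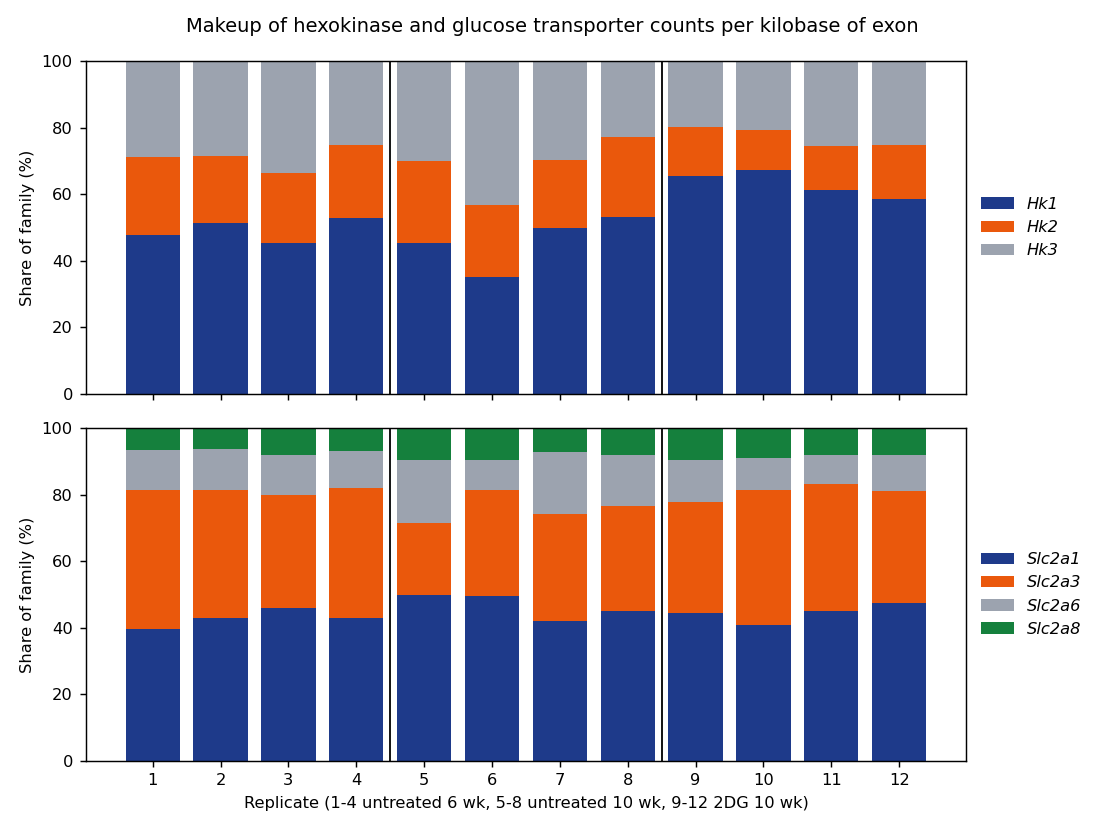
Share (%) of each gene in the summed CPM per kilobase of exon of its family in each library, hexokinases above and glucose transporters below, with lines between the groups; Hkdc1, at most 0.037%, is too small to see. The Hk1 part is 58.4 to 67.1% in the 2DG libraries and at most 53.1% in the others.

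Hkdc1 (ENSMUSG00000020080.8, chromosome 10, beside Hk1) had 0 to 2 counts per library, with sums of 2 counts at 6 weeks, 4 in untreated spleens at 10 weeks and 1 with 2DG. Each library could have shown a level of 0.124 to 0.184 CPM with 3 counts, so its level was below that limit, and the filter on low counts left it untested. The limit covers counting error only.

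Adpgk (ENSMUSG00000025236.11, chromosome 9, 59291558 to 59324052, plus strand) encodes a glucokinase of the endoplasmic reticulum that uses ADP in place of ATP. Its levels were 129, 126, 114 and 118 CPM at 6 weeks, 99.0, 176, 121 and 110.0 CPM in the untreated 10-week group, and 107, 113, 122 and 113 CPM with 2DG. Replicate 6 stood above all other libraries and the groups overlapped. The log2 change was 0.05 with age (SE 0.14, edgeR adjusted p = 0.883) and -0.15 for 2DG at 10 weeks (SE 0.14, adjusted p = 0.555). Without replicate 6 both turned sign, to -0.14 and 0.046. Against 6 weeks the 2DG change was -0.098 (SE 0.14, adjusted p = 0.791).

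G6pc3 (ENSMUSG00000034793.15, chromosome 11, 102189620 to 102194081, plus strand) encodes the glucose 6-phosphatase expressed outside liver and kidney, which neutrophils need for normal function. It had 23.2, 26.4, 23.4 and 26.1 CPM at 6 weeks, 24.8, 31.3, 21.2 and 25.8 CPM in the untreated 10-week group, and 25.0, 23.3, 26.1 and 24.3 CPM with 2DG. The lowest and the highest library were both untreated 10-week spleens. Its log2 changes were 0.056, -0.062 and -0.0056 with age, with 2DG at 10 weeks and with 2DG against 6 weeks (SE 0.10 for each), and none passed (edgeR adjusted p = 0.825, 0.772 and 0.987). Without replicate 6 the first became -0.046 and the second 0.042.

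The other genes of this step that the table holds were a list of 8: glucokinase and its regulator, the other glucose 6-phosphatases and the Slc37a phosphate carriers. Only the 4 carriers had enough counts to be tested, and none passed in any comparison. Slc37a2, a sugar phosphate exchanger of macrophages, had the smallest p and stood at 53.9 ± 8.52 CPM untreated and 69.4 ± 5.04 CPM with 2DG (log2 change 0.36, edgeR adjusted p = 0.0739). It passed without replicate 7 (adjusted p = 0.0269) and with DESeq2 (adjusted p = 0.0499), and adjusted p reached 0.18 over the alternatives.

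Slc2a1 (ENSMUSG00000028645.11, chromosome 4, 119108711 to 119137983, plus strand) encodes GLUT1, a carrier that activated lymphocytes use. It had 44.2, 47.7, 45.2 and 47.6 CPM at 6 weeks, 48.8, 59.2, 42.2 and 48.1 CPM in the untreated 10-week group, and 47.9, 47.1, 55.1 and 52.0 CPM with 2DG. Groups overlapped, and replicates 7 and 6 of the untreated 10-week group were the lowest and the highest of all libraries. The log2 change with 2DG at 10 weeks was 0.028 (SE 0.091), with age 0.10 (SE 0.092, edgeR adjusted p = 0.608), and 0.13 for 2DG against 6 weeks (SE 0.092, adjusted p = 0.522). Over the alternatives the 2DG change at 10 weeks ran from -0.049 to 0.15 and passed in none of them.

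Slc2a3 (ENSMUSG00000003153.10, chromosome 6, 122727809 to 122801640, minus strand) encodes GLUT3, a carrier with high affinity for glucose that platelets and leukocytes carry. It had 96.3, 87.5, 69.8 and 89.8 CPM at 6 weeks. Untreated spleens at 10 weeks had 43.6, 78.8, 66.4 and 69.7 CPM, and spleens given 2DG 74.3, 96.3, 96.2 and 75.8 CPM. Replicate 5 was the lowest library by a wide margin, and the untreated 10-week group overlapped both others. The log2 change was -0.41 with age (SE 0.17, edgeR adjusted p = 0.239) and 0.41 for 2DG at 10 weeks (SE 0.17, adjusted p = 0.159), and the mean levels with 2DG and at 6 weeks were 85.6 ± 12.3 and 85.8 ± 11.3 CPM (-0.0033, SE 0.17, adjusted p = 0.995). Without replicate 5 the age change was -0.26 and the 2DG change at 10 weeks 0.26. None passed in any alternative, with the lowest adjusted p at 0.0655 with age and 0.0546 with 2DG at 10 weeks.

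Platelet and megakaryocyte markers are given beside Slc2a3. All 8 had negative log2 changes with age and positive ones with 2DG at 10 weeks, and none passed. Their sum was 344 to 576 CPM at 6 weeks, 212 to 350 CPM in the untreated 10-week group and 264 to 540 CPM with 2DG, with none at 0. Replicate 5 had the lowest sum as well as the lowest Slc2a3. Replicate 6, with a sum of 258 CPM, had more Slc2a3 (78.8 CPM) than replicate 7 (66.4 CPM), whose sum was 350 CPM. Replicate 12, with a sum of 264 CPM, likewise stood above replicate 3, with a sum of 344 CPM, at 75.8 against 69.8 CPM of Slc2a3. The part of platelets in the Slc2a3 levels was not tested.

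Slc2a6 (ENSMUSG00000036067.12, chromosome 2, 27021363 to 27027998, minus strand) encodes GLUT6, an intracellular carrier that inflammatory macrophages make. It had 12.3, 12.6, 10.8 and 11.4 CPM at 6 weeks, 16.8, 9.63, 17.1 and 15.0 CPM in the untreated 10-week group, and 12.5, 10.3, 9.57 and 10.9 CPM with 2DG. Replicates 5, 7 and 8 lay above every other library, and replicate 6 lay near the bottom. The 2DG change at 10 weeks was -0.44 (SE 0.16, edgeR adjusted p = 0.108). Without replicate 6 it was -0.59 (adjusted p = 0.00575), with voom -0.53 (adjusted p = 0.0321), and adjusted p ran from 0.00226 to 0.253 over the alternatives. The age change was 0.32 (SE 0.16, adjusted p = 0.324), 0.48 without replicate 6 (adjusted p = 0.121) and 0.53 without replicates 6 and 8 together (adjusted p = 0.0126; 0.0126 to 0.554 over the alternatives). The 2DG change against 6 weeks was -0.12 (SE 0.16, adjusted p = 0.769).

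Slc2a8 (ENSMUSG00000026791.14, chromosome 2, 32972990 to 32982083, minus strand) encodes GLUT8, a carrier held in endosomes and lysosomes. It had 6.69, 6.32, 7.32 and 6.93 CPM at 6 weeks, 8.66, 10.6, 6.60 and 7.84 CPM in the untreated 10-week group, and 9.30, 9.29, 9.14 and 7.94 CPM with 2DG. All 4 2DG libraries lay above the 4 at 6 weeks, and both overlapped the untreated 10-week group. The 2DG change against 6 weeks was 0.39 (SE 0.13, edgeR adjusted p = 0.165), and it passed in a fit of the compared groups alone and with voom (adjusted p = 0.0346 and 0.0283; 0.0283 to 0.377 over the alternatives). The changes with age and with 2DG at 10 weeks were 0.31 (SE 0.13, adjusted p = 0.266) and 0.083 (SE 0.13, adjusted p = 0.755). Without replicate 6 they were 0.18 and 0.21.

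Of the summed CPM per kilobase of the 4 transporters, Slc2a1 held 42.8 ± 2.51%, 46.7 ± 3.75% and 44.5 ± 2.74% at 6 weeks, untreated at 10 weeks and with 2DG. Slc2a3 held 38.4 ± 3.16%, 29.3 ± 5.14% and 36.4 ± 3.52%, with 21.6% in replicate 5. Slc2a6 held 11.9 ± 0.512%, 15.4 ± 4.66% and 10.5 ± 1.76%. With the other length measure Slc2a3 rather than Slc2a1 was the leading transporter, at 48.5 ± 3.32% against 31.9 ± 2.33% at 6 weeks. The summed level was 30.8 ± 1.75, 30.2 ± 2.77 and 32.4 ± 1.86 CPM per kilobase, and the groups overlapped.

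Other members of the GLUT and SGLT families were a list of 11, of which 4 had enough counts to be tested and none passed. Slc2a4, which encodes the insulin-responsive carrier GLUT4 and had the smallest p, stood at 3.96 ± 1.06 CPM at 6 weeks, 4.89 ± 1.91 CPM untreated at 10 weeks and 8.90 ± 3.03 CPM with 2DG. Its 2DG change at 10 weeks was 0.86 (SE 0.31, edgeR adjusted p = 0.106). It passed without replicate 7 (1.15, adjusted p = 0.0319), without 2DG replicate 12 (1.06, adjusted p = 0.0446) and with DESeq2 (adjusted p = 0.0483), and adjusted p reached 0.354 over the alternatives.

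Counted over the 9 tested members, none passed with age, where 8 log2 changes were positive, 3 had an unadjusted p under 0.05 (Hk2, Slc2a3 and Slc2a8; 3179 of the 18542 genes did), and no member had groups apart. DESeq2 and voom also called 0. Of all genes 0.00539% passed with age and 6.97% had groups that did not overlap. The members' median log2 change was 0.23, against 0.0073 over all genes. With 2DG at 10 weeks the median was -0.062 against 0.0096, with 4 changes positive and 5 negative, and the 1 call among 9 stands against the 7.42% of genes given above. An unadjusted p under 0.05 was reached by 4 of the 9 (Hk2, Hk3, Slc2a3 and Slc2a6) and by 4549 of all genes. For 2DG against 6 weeks none passed in the edgeR fit of all 12 libraries. An unadjusted p under 0.05 was reached there by 3 (Hk1, Hk2 and Slc2a8) and by 3132 of all genes. Groups were apart for 2 members, Slc2a8 higher and Hk2 lower. The edgeR fit of the compared groups alone called 3 members (Hk1, Hk2 and Slc2a8), voom 3 and DESeq2 1 (Hk2). Over all genes 0.129% passed in the fit of all 12 libraries, and 15.7% did not overlap in that comparison.

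**Figure D4:**
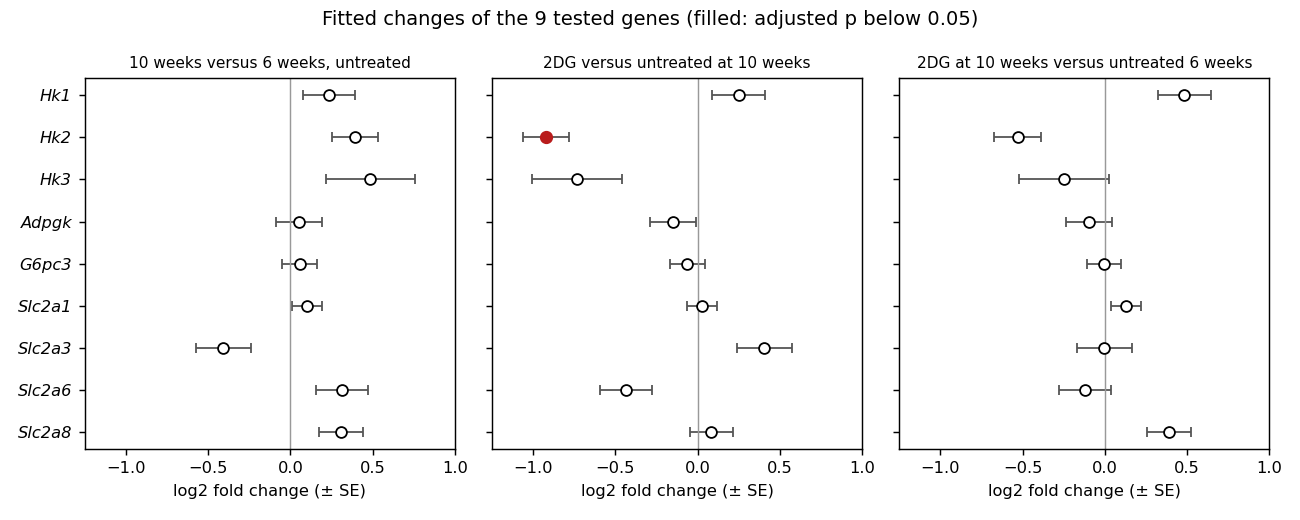
Fitted log2 fold changes (points) with their SE (bars) for the 9 tested genes in the 3 comparisons, which share libraries; filled points passed at an adjusted p below 0.05. Hk2 with 2DG at 10 weeks, at -0.92, is the 1 filled point, and Hk3 has the widest error bars.

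The genes on either side of this step were followed as 3 further lists. None of their genes passed with age or for 2DG against 6 weeks, so the following concerns 2DG against untreated spleens at 10 weeks. Over all genes 7.42% passed in that comparison, in either direction, and the median log2 change was 0.0096. Among 15 tested regulators of glucose uptake and of hexokinase, 1 rose and 2 fell, and the median log2 change was -0.082. Arrdc4, an arrestin-domain protein that removes glucose carriers from the cell surface, rose from 31.8 ± 3.56 to 43.8 ± 2.44 CPM (log2 change 0.46, edgeR adjusted p = 0.0184). Hif1a, the hypoxia-inducible factor that activates Hk2 and Slc2a1, fell from 188 ± 19.3 to 132 ± 19.4 CPM (-0.51, adjusted p = 0.0153). Akt1, a kinase of insulin and growth factor signalling, fell from 174 ± 14.2 to 144 ± 5.05 CPM (-0.27, adjusted p = 0.0184).

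Each of these calls was lost in some alternatives. Calls over all genes also varied, from 1376 in the main fit to 515 and 514 without 2DG replicate 10 and 11. They numbered 581 with only the compared groups, and 3193 without untreated 10-week replicates 6 and 8 together. A loss where calls fell over all genes therefore need not be particular to the gene. Without untreated 10-week replicate 6, 7 or 8 calls over all genes rose, to 1829, 1584 and 2209. That reading does not cover losses there, as some of those of Pfkm, Slc16a3, Pgm3 and Gnpda1 below. The call of Arrdc4 was lost without 2DG replicate 11 (edgeR adjusted p = 0.0694), and that of Hif1a without 2DG replicate 10 or 11 (0.0600 and 0.0588). That of Akt1 was lost without untreated 10-week replicate 5 or 2DG replicate 10 or 11 (0.0522 to 0.0656), and with only the compared groups (0.0758). The remaining 12 tested regulators, among them Txnip, the thioredoxin-interacting protein that also removes glucose carriers, at 470 ± 170 and 544 ± 50.2 CPM (adjusted p = 0.555), did not pass.

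Of 23 genes of glycolysis below hexokinase 1 rose and 5 fell, where 7.42% of all genes passed in either direction. Their median log2 change was -0.28, against 0.0096 over all genes. Pfkp, the form prominent in platelets and proliferating cells, fell from 160 ± 40.5 to 101 ± 10.9 CPM (-0.66, edgeR adjusted p = 0.0184). Pfkm, the muscle form, rose from 28.8 ± 5.45 to 44.5 ± 9.48 CPM (0.63, adjusted p = 0.0278). Pfkl, the liver form, stood at 75.6 ± 14.5 and 62.1 ± 0.348 CPM without passing (adjusted p = 0.12). The call of Pfkm was lost in 8 of the 20 alternatives, among them without untreated 10-week replicate 5 or 6 or 2DG replicate 9, 10 or 11. It was also lost without untreated replicates 6 and 8 together (log2 change 0.46, edgeR adjusted p = 0.114, the highest). Calls over all genes rose there and without replicate 6.

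Pfkfb3, which makes the activator of phosphofructokinase, fell by 0.34 and Pkm, the pyruvate kinase of leukocytes, by 0.66 on the log2 scale (edgeR adjusted p = 0.0121 and 0.0151). Without 2DG replicate 10 or 11 both missed the threshold, with edgeR adjusted p of 0.0501 to 0.0577, and the call of Pfkp was lost without the same libraries (0.0691 and 0.0660). With only the compared groups Pfkfb3, Pkm and Pfkp missed it too (edgeR adjusted p = 0.0516, 0.056 and 0.064). Slc16a3, the lactate exporter MCT4, fell by 0.93 (adjusted p = 0.0448) but passed in 7 of 20 alternatives only. Pgam1, phosphoglycerate mutase, fell by 0.64 (adjusted p = 0.0443), passed in 9 of 20, and was counted at 4.30 and 2.76 CPM. It has near-identical processed copies, as has Gapdh, at 17.7 ± 5.23 and 12.3 ± 1.83 CPM, named after its values were seen, and counts of such genes are uncertain. The call of Slc16a3 was lost without any 1 of replicates 1 to 6 and 9 to 12 (edgeR adjusted p up to 0.122). That of Pgam1 was lost without any 1 of replicates 1 to 5 and 9 to 11 (edgeR adjusted p up to 0.139). Replicates 1 to 4 are 6-week libraries outside this comparison. Without any 1 of them the log2 changes stayed at -0.93 and -0.64, so those losses came with unchanged effect sizes.

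Of 21 genes of other uses of hexose phosphate, 1 rose and 2 fell, where 7.42% of all genes passed in either direction. Their median log2 change was -0.089, against 0.0096 over all genes. Gfpt1, which commits fructose 6-phosphate to hexosamine synthesis, fell from 168 ± 18.2 to 118 ± 5.07 CPM (-0.51, edgeR adjusted p = 0.00374), and the call held in all 20 alternatives. Pgm3, a later enzyme of the same route, fell from 16.5 ± 2.70 to 11.6 ± 1.35 CPM (-0.50, adjusted p = 0.0279). That call was lost without untreated 10-week replicate 5 or 7 or 2DG replicate 9, 10 or 11, with adjusted p up to 0.0994. Gnpda1, which runs that route backwards, rose from 6.62 ± 0.662 to 8.44 ± 0.477 CPM (0.35, adjusted p = 0.0462) but passed in 3 of 20 alternatives only, and without any single library other than untreated 10-week replicate 5 it was lost (adjusted p up to 0.133). No gene of entry into the pentose phosphate pathway or of glycogen metabolism on the list passed.

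**Figure D5:**
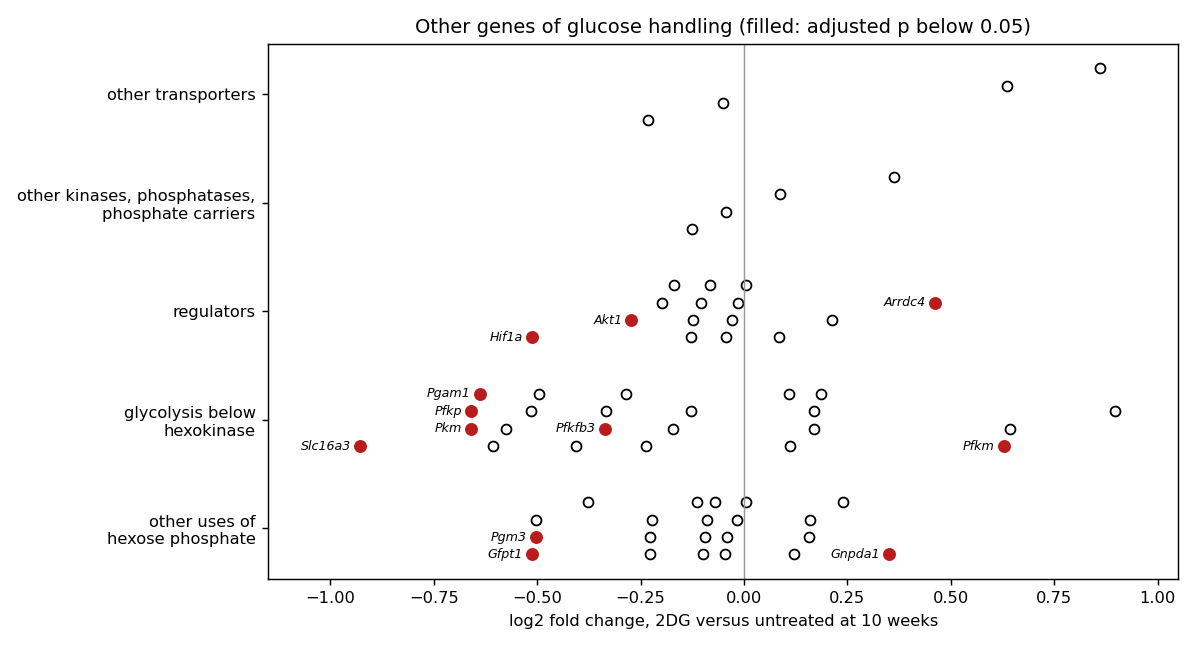
Log2 fold change with 2DG against untreated spleens at 10 weeks for the tested genes of 5 lists around glucose uptake and phosphorylation, one point per gene with arbitrary vertical offsets within a row; filled, named points passed at an adjusted p below 0.05. The 2 lists nearest to the members, other transporters and other kinases, phosphatases and carriers, have 4 tested genes each and no filled point.

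The table gives 1 count per gene over both strands, since the kit does not mark strand. Annotated exons of Hk1 share 157 bases with the antisense gene Hk1os, those of Adpgk 194 with Bbs4, those of Slc2a1 105 with antisense models and those of Hk3 34 with Unc5a, so reads from these stretches could belong to either gene. Exons of Hk2 share none. Slc2a3 overlaps the pseudogene Gm4482 on its own strand, and the sources used here do not give how reads of that stretch were assigned.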

How the data were processed

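Libraries were made from poly(A)-selected spleen RNA with the TruSeq v2 kit, which leaves strand unmarked, per the labels' protocols. The 12 libraries share 1 deposited table of raw counts, whole numbers with 1 value per gene. Per the submitters' processing notes the tools were Bowtie2 2.2.0 and RSEM 1.2.12 with build GRCm38; their roles, and the treatment of reads shared by similar genes, are not stated there. Columns were matched to samples by their descriptions and groups came from the titles. Replicate numbers run on across groups and pair no samples. Of 53715 identifiers 53620 matched GENCODE M21, which gave symbols, coordinates and exon lengths. No pair of libraries within a group agreed within sampling noise (chi-square per gene 10.5 to 85.2).

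All 12 libraries were fitted together with edgeR 4.0.16 in R 4.3.3 (TMM, filterByExpr by group, robust quasi-likelihood; 18542 genes tested). Adjusted p-values are Benjamini-Hochberg over all of them with a threshold of 0.05, and CPM are counts scaled after TMM. Alternatives were DESeq2 1.42.0, voom with quality weights in limma 3.58.1, other size factors, no filter, at least 1 CPM in 4 libraries, the compared groups alone, immunoglobulin genes removed, each library left out, and untreated 10-week replicates 6 and 8 left out together. Likeness of profiles used log2 CPM (prior count 2) of genes with an average of at least 3. The members, pathway lists and marker lists were chosen with earlier results of these data known. Named genes were all members, every gene of a pathway list past the threshold or else the one with the smallest p, and the 3 closest profiles to a member past it. Marker lists not mentioned beside a result (B cell, T cell and dendritic cell) had 0, 0 and 3 higher genes past the threshold with 2DG at 10 weeks. In the same comparison 2 of the spleen markers were higher. Limits of detection cover counting error only, whereas the SD and SE given include variation between libraries.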

Additional observations from a re-analysis of the deposited data

Results flagged for a closer look

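Slc2a8 in 2DG replicate 12 stood at 7.94 CPM, apart from 9.14 to 9.30 CPM in the other libraries of its group. The gap was 0.878 of the group's range, above the Dixon critical value for 4 samples. It was the 1 case among 27 groups examined (9 genes in 3 groups), where chance gives about 1 in 20.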

How the results depend on the processing

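The fall of Hk2 with 2DG at 10 weeks kept its direction and passed in all 20 alternatives. The number of members past the threshold in that comparison was 2 with voom, 2 with DESeq2 and 1 to 2 when single libraries were left out. It was 3 without untreated replicates 6 and 8 together. Calls over all genes moved too, from 1376 of 18542 in the main fit to 1308 of 18542 with voom and 2304 of 20232 with DESeq2. They were 514 to 2209 when single libraries were left out, and 3193 of 19159 without replicates 6 and 8. A change in the member count therefore need not be particular to the members. With age the number of members was 0 to 2 when single libraries were left out and 2 without replicates 6 and 8. For 2DG against 6 weeks it was 3 in a fit of the compared groups alone, 3 with voom, 1 with DESeq2 and 1 without replicates 6 and 8. Calls over all genes under these settings are not given for the last 2 comparisons. Of 540 member values under the alternatives 494 kept direction and side of the threshold, 18 newly passed, 0 ceased to pass and 28 changed sign. The sign changes all concern values that were not called.

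With age, voom gave -0.036 for Adpgk and -0.057 for G6pc3; leaving out replicates 6 and 8 gave -0.14, -0.10 and -0.013 for Adpgk, G6pc3 and Slc2a1. With 2DG at 10 weeks, voom gave 0.047 for G6pc3, and leaving out both replicates gave -0.0046, 0.042 and 0.098 for Hk1, Adpgk and G6pc3. For 2DG against 6 weeks, no filter gave 0.0021 for G6pc3 and 0.0046 for Slc2a3, and voom 0.026 for Slc2a3. When single libraries were left out, the ranges that crossed 0 were, with age, -0.14 to 0.15 for Adpgk and -0.046 to 0.14 for G6pc3. With 2DG at 10 weeks they were -0.25 to 0.046 for Adpgk, -0.15 to 0.042 for G6pc3, -0.049 to 0.12 for Slc2a1 and -0.026 to 0.21 for Slc2a8. For 2DG against 6 weeks they were -0.037 to 0.028 for G6pc3 and -0.091 to 0.059 for Slc2a3. The cause was not tested.

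With the length of the transcript holding the longest coding sequence, an alternative chosen after seeing the data, the Hk1 share of hexokinase was 65.8%, 62.4% and 77.1% at 6 weeks, untreated at 10 weeks and with 2DG. No paired analysis was possible because the groups share no replicate numbers. The spread of the untreated 10-week libraries and low counts (Hkdc1) limit what could be detected.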
